A study of Mus musculus with 36 samples.

Results

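Growth hormone from the pituitary binds its receptor on hepatocytes, and the receptor acts through the kinase Jak2 and the transcription factor Stat5b. The liver answers by secreting insulin-like growth factor 1 (IGF-1), which circulates bound to IGF binding proteins and to an acid-labile subunit, while the Stat5b targets Socs2 and Cish feed back to dampen the receptor's signal. In male rodents growth hormone is released in pulses, and insulin and fasting act on the same pathway, mostly through the binding proteins.

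Transcripts of 10 genes of this axis were followed in mouse liver: the ligand Igf1, the receptor Ghr, the transducer Stat5b, the feedback inhibitors Socs2 and Cish, the acid-labile subunit Igfals, and the binding proteins Igfbp1, Igfbp2, Igfbp3 and Igfbp4. These 10 of the 19750 named genes on the array were found by gene name among 41174 probes of the array, of which 22 belong to the axis. The authors' processed table keeps 21781 of these probes, 21 of them from the axis, with at least 1 for each of the 10 genes. The probe left out of that table, A_52_P851352 for Igfbp3, was well above background on 0 of 12 arrays in each group, and its level is therefore known only as not well above background.

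The livers came from 36 adult male C57BL/6J mice in 3 groups of 12, and each mouse had its own array. Mice of group t=0 were killed after 3 weeks of adaptation to a mild-high-fat diet with 30% of energy from fat. HF mice went on with this diet for 12 weeks, and HF-Q mice received it for the same 12 weeks with 0.33% (w/w) quercetin, a plant flavonoid, mixed in. The mice had been 10 weeks old on entry, and all were fasted for at least 2 h. Strain and adaptation time are those of the labels, from which the methods differ by naming the substrain C57BL/6JOlaHsd and a shorter adaptation. HF and t=0 mice thus differed in age and in weeks on the diet, which cannot be told apart, and the hour of killing was not given in the sources used here.

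Values are the authors' normalized log2 signals of the mouse's own RNA (Cy5) relative to a pool of all samples (Cy3) on the same array, and a probe's level was not set against another probe's. Groups were compared with limma over all 21781 probes, and a probe was called when its Benjamini-Hochberg adjusted p was under 0.05. On 35 arrays between 56.4% and 67.4% of the probes were well above background in Cy5, but on the array of HF-Q replicate 2 it was 96.7%. Called differences of members with the HF-Q group are therefore also given without that mouse, as are some others. Gene lists and cell markers are given only with it. Of 6 hepatocyte markers 5 were measured, and their summed level ranged from 19.46 to 20.30 over all 36 livers, with only Cps1 called between HF and t=0 (-0.32). In whole liver, fewer cells of a type and less RNA per cell cannot be told apart.

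Between t=0 and HF the acid-labile subunit Igfals and Igfbp4 fell, each by a modest amount. The receptor Ghr fell at a single cDNA-clone probe but not at its brightest probe, and other Ghr probes passed only under some other settings. Igf1 itself did not pass the test. Of the 21 probes 4 were called, all lower in HF: 1 of the 5 probes of Ghr, the probe of Igfals and both probes of Igfbp4. Of all 21781 probes 21.3% were called in either direction, and 10.4% of all were called lower. The median difference over the 21 probes was -0.17, against -0.0047 over all probes, and 16 of the 21 lay below 0. By the brightest probe of each gene, 2 of 10 genes were called.

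**Figure D1:**
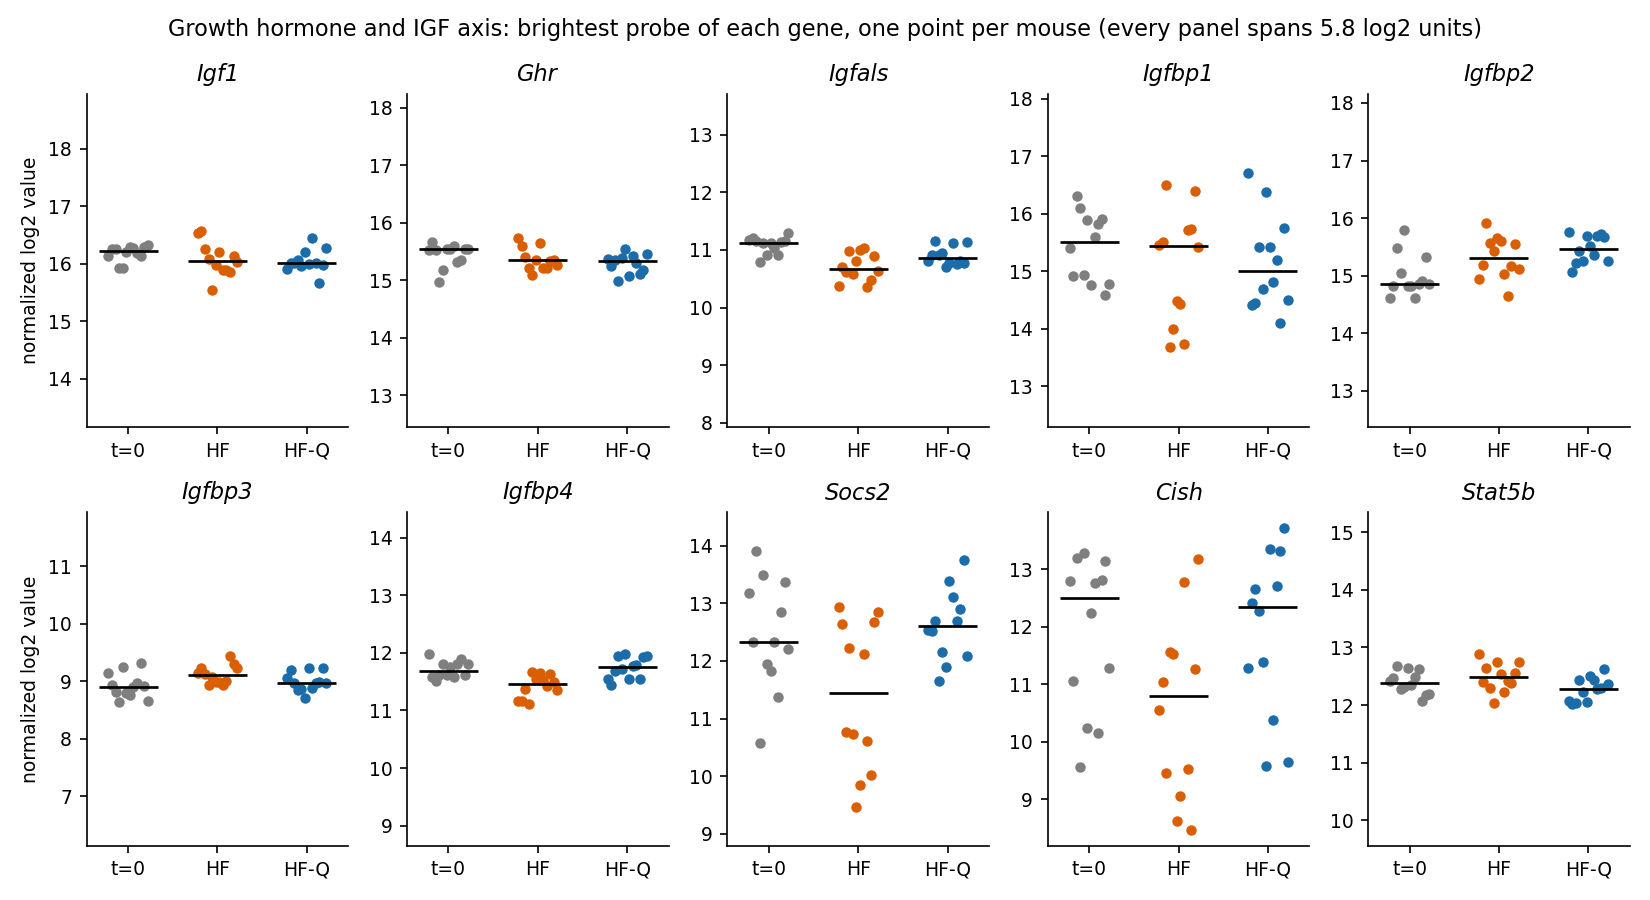
Normalized log2 value of the brightest probe of each of the 10 genes in every mouse, by group, with a black line at the group median and the same span on each vertical axis. Igf1, Ghr and Stat5b lie in narrow bands in all 3 groups, whereas Cish runs from 8.47 to 13.17 among HF mice alone and Socs2 from 9.46 to 12.93.

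Igfals, which holds IGF-1 and Igfbp3 in a long-lived complex in serum, ranged from 10.79 to 11.29 with a median of 11.12 in t=0 mice. In HF mice it ranged from 10.35 to 11.03 with a median of 10.67. Every HF mouse lay below the t=0 median, although the ranges overlapped. The difference of -0.38 (SE 0.08, adjusted p = 0.00122, limma) was found in the same direction on all 9 slides, each of which held arrays of all 3 groups, with within-slide differences from -0.82 to -0.01.

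Igfals is a known target of Stat5, a family of factors that bind palindromes of the form TTCNNNGAA, so the stretch before its start is shown. RefSeq lists 3 starts of the gene on mouse build GRCm38.p6, and promoter windows of 9 of the 10 genes, 14 in all, were at hand. The motif was searched on both strands, which read alike, in the 250 bases before each start. It was found in 2 of the 14 windows, both of Igfals, and in 7.02% of all 32851 windows of the same length. These windows are printed 5′ to 3′ with the motif in capitals, followed by that of Cish, another known Stat5 target, in whose window these letters do not occur.

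Igfals, chr17:24877594-24877843, plus strand: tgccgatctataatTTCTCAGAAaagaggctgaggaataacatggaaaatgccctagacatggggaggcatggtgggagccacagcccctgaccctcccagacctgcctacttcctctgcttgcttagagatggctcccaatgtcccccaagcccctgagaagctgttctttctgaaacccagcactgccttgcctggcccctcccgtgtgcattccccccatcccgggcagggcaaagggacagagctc
Igfals, chr17:24877981-24878230, plus strand: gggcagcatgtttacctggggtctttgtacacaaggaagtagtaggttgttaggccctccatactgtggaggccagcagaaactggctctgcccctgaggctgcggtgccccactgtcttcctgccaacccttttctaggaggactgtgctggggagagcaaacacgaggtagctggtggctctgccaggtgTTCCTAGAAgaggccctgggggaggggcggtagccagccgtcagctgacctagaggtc
Cish, chr9:107296409-107296658, plus strand: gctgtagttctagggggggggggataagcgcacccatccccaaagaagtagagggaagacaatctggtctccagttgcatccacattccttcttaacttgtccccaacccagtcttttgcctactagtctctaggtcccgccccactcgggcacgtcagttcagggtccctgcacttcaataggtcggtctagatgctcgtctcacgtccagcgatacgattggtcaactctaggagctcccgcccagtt

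In the second Igfals window the palindrome starts 58 bases before the gene's start, and in the first it starts 236 bases before. A match is a sequence of letters and was not measured as a bound site in these livers.

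Ghr, the growth hormone receptor, has 5 probes in the table, and they did not move by the same amount. The 3 probes designed on its reference transcript differed between HF and t=0 by -0.08, -0.17 and -0.14, with adjusted p-values of 0.521, 0.0783 and 0.259 (limma). The 2 probes designed on cDNA clones had larger differences. A_52_P54106 fell by 0.53 on the log2 scale (SE 0.13, adjusted p = 0.00463), and A_52_P633550 gave -0.39 (SE 0.15, adjusted p = 0.0724). At A_52_P54106 the t=0 mice ranged from 9.31 to 10.28 with a median of 9.88 and the HF mice from 8.75 to 9.92 with a median of 9.15, so that 11 of 12 HF mice lay below the t=0 median, and HF was lower on 8 of 9 slides. Single mice and the processing decided other Ghr probes. A_51_P499854 passed without HF replicate 1 or 7 or t=0 replicate 4 (adjusted p down to 0.0331), and A_52_P633550 without HF replicate 1 or 11 or t=0 replicate 7 or 10 (down to 0.0166). A_51_P499854 also passed after normexp and loess (adjusted p = 0.000791), quantile normalization (0.00143) or the Feature Extraction log ratio (0.00383), with differences from -0.24 to -0.05 over 38 alternatives. A_52_P680941 passed in 4 alternatives, such as the Feature Extraction log ratio (0.0346), and the brightest probe, A_52_P680935, in 0. In mm8, the build of the array files, A_52_P54106 sits at chr15:3275624-3275683 on the minus strand, between the reference transcript's probes at 3268107 and 3277988, and whether it lies in an exon or an intron was not analysed here.

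Igfbp4, a binding protein that mostly holds IGF-1 away from its receptor, was called at both probes. At A_52_P257502, the brighter, t=0 mice ranged from 11.51 to 11.99 with a median of 11.69, and HF mice from 11.11 to 11.67 with a median of 11.46. No HF mouse reached the t=0 median. The difference was -0.28 (SE 0.07, adjusted p = 0.00546, limma) at this probe and -0.33 (SE 0.08, adjusted p = 0.00599) at A_51_P398971, and each was negative on 8 of 9 slides.

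The ligand was nearly level. Igf1 at its brightest probe, A_51_P147942, ranged from 15.92 to 16.32 in t=0 mice and from 15.55 to 16.57 in HF mice, with medians of 16.23 and 16.05. The difference of -0.10 (95% interval -0.28 to 0.08, adjusted p = 0.43, limma) did not pass the test, and the second probe of the reference transcripts, A_52_P536434, gave -0.10 as well. After normexp background correction and loess these were -0.16 for both probes and passed (adjusted p = 0.0359 and 0.0315). Stat5b, the factor activated by the receptor, differed by 0.10 (95% interval -0.08 to 0.28, adjusted p = 0.437) at its brightest probe, and by 0.06 at A_52_P663027 and 0.02 at A_51_P281938 (adjusted p = 0.721 and 0.911). The latter probes are dim, at 2.70 and 2.32 times the background in t=0.

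Among the brightest probes of the 10 genes, those of the feedback inhibitors had the largest mean differences and the largest spread. Cish, which blocks Stat5 docking at cytokine receptors, ranged from 9.57 to 13.29 with a median of 12.50 in t=0 mice. In HF mice it ranged from 8.47 to 13.17 with a median of 10.80, and 10 of 12 HF mice lay below the t=0 median. The difference of -1.29 (SE 0.54, adjusted p = 0.0853, limma) did not pass the test.

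Socs2, a suppressor of growth hormone receptor signalling, ranged from 10.58 to 13.92 in t=0 mice and from 9.46 to 12.93 in HF mice, with medians of 12.33 and 11.45. The difference was -1.04 (SE 0.42, adjusted p = 0.0781). The groups overlapped widely for both inhibitors, HF was lower on 7 of 9 slides for Socs2 and on 6 for Cish, and single mice decided whether they passed. The second Socs2 probe, A_52_P84037, gave -0.32 (adjusted p = 0.113), was higher in HF on 5 of 9 slides and had a median within-slide difference of 0.04. Without t=0 replicate 4 the adjusted p was 0.0384 for Cish and 0.033 for Socs2, and it also passed without HF replicate 8 (0.0471) or 12 (0.0359) for Cish and without HF replicate 1 (0.0471) or 12 (0.0485) for Socs2.

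The binding proteins other than Igfbp4 did not pass the test between HF and t=0. Igfbp2, a binding protein made abundantly by the liver, had a median of 14.85 in t=0 and 15.31 in HF mice, with a difference of 0.32 (adjusted p = 0.0943) and 11 of 12 HF mice above the t=0 median. It passed without t=0 replicate 5 (adjusted p = 0.0289) or HF replicate 9 (0.0381), and with slide as a fixed block (0.38, adjusted p = 0.0132). Igfbp3, the main serum carrier of IGF-1, gave 0.19 (adjusted p = 0.0763) at its brightest probe, with all 12 HF mice above the t=0 median. A_51_P228472 gave -0.08, the other sign, but is dim, at 2.68 times the background in t=0 and 2.78 times in HF. The brightest Igfbp3 probe passed without t=0 replicate 5 (adjusted p = 0.0396) or 10 (0.0301). Igfbp1, which insulin represses and fasting raises, spread from 13.68 to 16.50 in HF mice and gave -0.33 (adjusted p = 0.453).

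**Figure D2:**
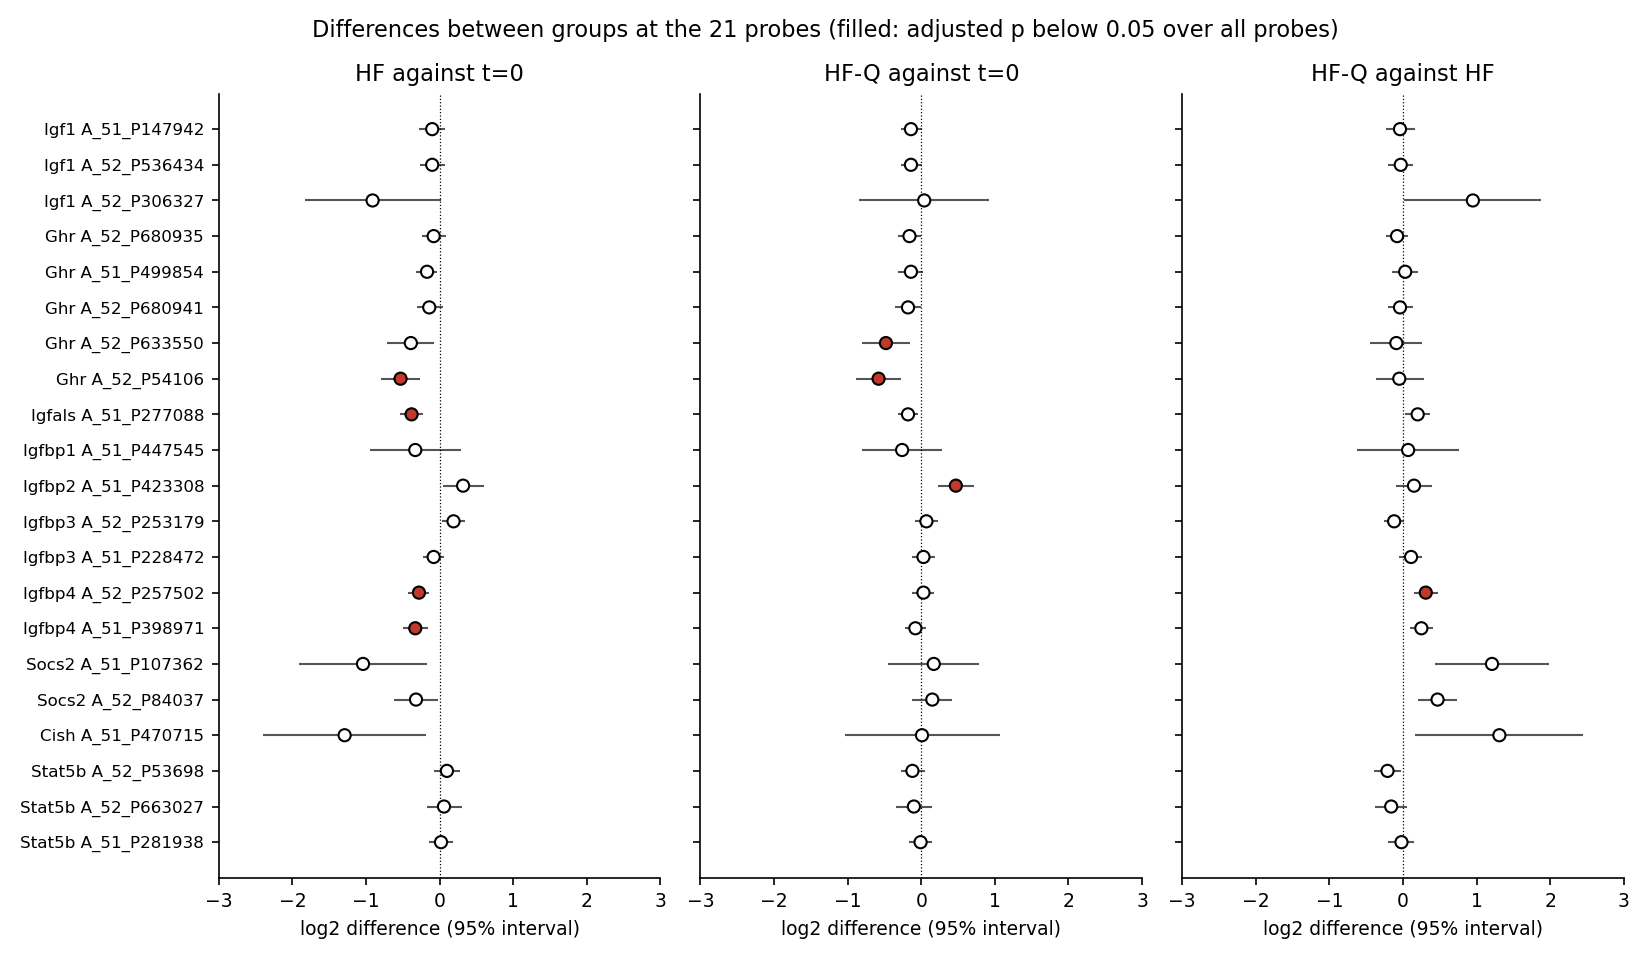
Log2 difference with its 95% interval at each of the 21 probes in the 3 comparisons, filled red where the adjusted p was under 0.05 over all probes. For HF against t=0 the interval of Igf1 runs from -0.28 to 0.08, whereas that of Cish runs from -2.40 to -0.19 and that of Socs2 from -1.91 to -0.17.

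After 12 weeks with quercetin, 3 of the 21 probes were called against t=0, where 11.9% of all probes were. Of the members 1 was higher and 2 were lower, against 6.62% and 5.3% of all probes. Igfbp2 was higher, and Ghr was lower at its 2 clone probes, though not at the 3 probes of its reference transcript. The t=0 arrays serve both comparisons, so the values are given side by side and are not independent of those above. Igfbp2 ranged from 15.06 to 15.76 with a median of 15.46 in HF-Q mice, and all 12 lay above the t=0 median of 14.85. The difference of 0.47 (SE 0.12, adjusted p = 0.00904, limma) became 0.51 (adjusted p = 0.00531) without HF-Q replicate 2, and the HF group had given 0.32.

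Ghr fell by 0.58 (SE 0.15, adjusted p = 0.0124) at A_52_P54106 and by 0.48 (SE 0.16, adjusted p = 0.0496) at A_52_P633550, against changes of -0.53 and -0.39 in HF. Without HF-Q replicate 2 these were -0.64 (adjusted p = 0.00475) and -0.54 (0.0243). The call at A_52_P633550 was lost without any 1 of 16 mice, namely HF-Q replicates 4, 6, 7, 8, 10, 11 and 12 and t=0 replicates 1, 2, 3, 4, 5, 6, 8, 9 and 12, with adjusted p up to 0.0865, and with slide as a fixed block (0.0727). Igfals gave -0.18 (adjusted p = 0.0614), and passed without HF-Q replicate 3, 8 or 12 or t=0 replicate 4 or 9, with adjusted p down to 0.0214. The reference probes of Ghr A_52_P680935 and A_52_P680941 did not pass, but did without t=0 replicate 4 (adjusted p = 0.0429 and 0.0487), and A_52_P680935 also passed after normexp and loess (0.0394) or quantile normalization (0.0431).

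The feedback inhibitors of HF-Q mice had means like those of t=0 mice: the difference was 0.01 (95% interval -1.04 to 1.07) for Cish and 0.17 (95% interval -0.45 to 0.78) for Socs2. Without HF-Q replicate 2 the differences were -0.03 for Cish and 0.18 for Socs2. The wide intervals leave room for changes of either sign.

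Compared directly, HF-Q and HF differed at 1 of the 21 probes, which was higher, against 2.36% of all 21781 in either direction and 1.49% higher. Igfbp4 at A_52_P257502 ranged from 11.45 to 11.99 with a median of 11.75 in HF-Q mice, and 11 of 12 lay above the HF median of 11.46. Its difference was 0.31 (SE 0.08, adjusted p = 0.0287, limma), or 0.34 (adjusted p = 0.0176) without HF-Q replicate 2. The second Igfbp4 probe gave 0.25 (SE 0.08, adjusted p = 0.0799). The call at the first was lost with slide as a fixed block (0.29, adjusted p = 0.13) and without HF-Q replicate 6, 11 or 12 or HF replicate 2 or 4, with adjusted p up to 0.0561, and the second probe passed without HF replicate 7 (adjusted p = 0.0232). Within slides the first probe was higher in HF-Q on 6 of 9.

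Socs2 was higher in HF-Q by 1.21 (SE 0.38, adjusted p = 0.093) at its brightest probe and by 0.47 (SE 0.13, adjusted p = 0.0544) at A_52_P84037, neither past the test. At both probes all 12 HF-Q mice lay above the HF median, and on 8 of 9 slides the HF-Q arrays were higher. In HF-Q mice Socs2 ranged from 11.65 to 13.75, inside the upper part of the range of t=0. The brightest probe passed without HF replicate 1 (adjusted p = 0.048), and A_52_P84037 passed without HF-Q replicate 5 or 10 or HF replicate 1, 2, 8 or 11, with adjusted p down to 0.0321. Without HF-Q replicate 2 the values were 1.21 (adjusted p = 0.119) and 0.45 (0.0851). Cish gave 1.31 (SE 0.56, adjusted p = 0.244), Igfals 0.20 (adjusted p = 0.22, 12 of 12 HF-Q mice above the HF median) and Igf1 -0.04 (adjusted p = 0.886). Leaving out HF-Q replicate 2 gave 1.26 for Cish (adjusted p = 0.318), 0.20 for Igfals (0.271) and -0.03 for Igf1 (0.922).

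Mice of the same group differed far more in some members than in others. The standard deviation within groups was 1.45 log2 for Cish, and 0.124% of the 21781 probes had a larger one. It was 1.00 for Socs2 (0.303% larger) and 0.82 for Igfbp1 (0.514% larger), against 0.21 for Igf1, 0.19 for Ghr and a median of 0.18 over all probes. The highest Cish value among HF mice was 26.0-fold the lowest, and the ratio was 13.2 in t=0 and 17.7 in HF-Q mice.

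**Figure D3:**
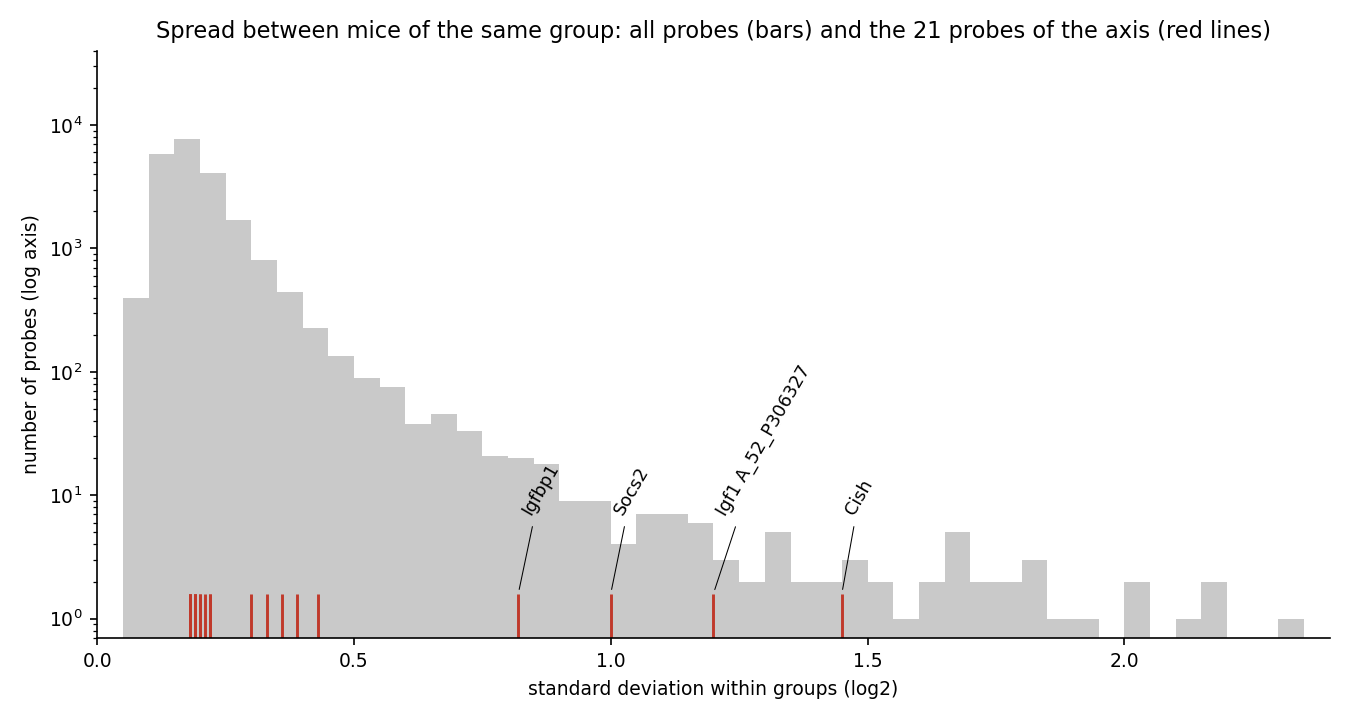
Number of probes by their standard deviation within groups (grey bars, log vertical axis, all 21781 probes), with a red line for each of the 21 probes of the axis. Cish, Igf1 A_52_P306327, Socs2 and Igfbp1 lie in the far right tail at 0.82 to 1.45, and the other 17 probes at 0.18 to 0.43.

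A probe named Igf1 in the array files stood apart from the other Igf1 probes. A_52_P306327, designed on the cDNA clone AK050118 and placed at chr10:87292436-87292495 of mm8, lies upstream of the A_51_P147942 probe at chr10:87360570-87360629 on the same plus strand. Its standard deviation within groups was 1.20, and its values ran from 7.94 to 11.11 in t=0, from 7.43 to 11.42 in HF and from 7.96 to 11.22 in HF-Q mice. Differences between groups were -0.91 for HF against t=0 (adjusted p = 0.15) and 0.95 for HF-Q against HF (adjusted p = 0.311). Over the mice it did not follow the brightest Igf1 probe (r = -0.36, rho = -0.26, n = 36).

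The brightest probes of the 10 genes were all set against one another over the 36 mice, after each group's mean had been taken out. Of the 45 pairs of brightest probes 3 passed a two-sided permutation test within groups (100000 permutations, Benjamini-Hochberg over the 45 pairs). The same 3 passed without HF-Q replicate 2. All points share the Cy3 pool, and the 2 values of a mouse share its array.

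Socs2 and Cish were high in the same mice, with r = 0.75 and rho = 0.73 (permutation p = 1e-05 for each, the smallest that 100000 permutations can give, adjusted p = 0.000225, n = 36). Without the 2 mice farthest from the median of Socs2, r was 0.70. It was 0.77 with slide means removed too, and 0.88 within t=0, 0.79 within HF and 0.59 within HF-Q.

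Igf1 and Ghr also went together, with r = 0.74 and rho = 0.75 (permutation p = 1e-05 for each, adjusted p = 0.000225, n = 36). Leaving out the 2 farthest mice gave 0.71 and removing slide means 0.76, and within groups r was 0.88, 0.86 and 0.53 in the order t=0, HF and HF-Q. The relation was weaker with array values after normexp and loess, at r = 0.55 and rho = 0.60 (permutation test, adjusted p = 0.00382 and 0.0045). It was not particular to the pair: without centring, other genes reached r = 0.81 with Igf1 and 0.86 with Ghr. Mice differed little in either transcript, with standard deviations within groups of 0.21 and 0.19.

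Igfals was lower in mice in which Igfbp1 was higher, with r = -0.55 (permutation p = 0.00153) and rho = -0.55 (permutation p = 0.00149) and adjusted p-values of 0.0229 and 0.0223. Without the 2 farthest mice r was -0.55. With slide means removed r was -0.44 (permutation test, adjusted p = 0.0702) and rho was -0.50 (adjusted p = 0.0296). Within t=0, HF and HF-Q r was -0.59, -0.53 and -0.58, none past the permutation test (adjusted p = 0.322, 0.409 and 0.266).

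**Figure D4:**
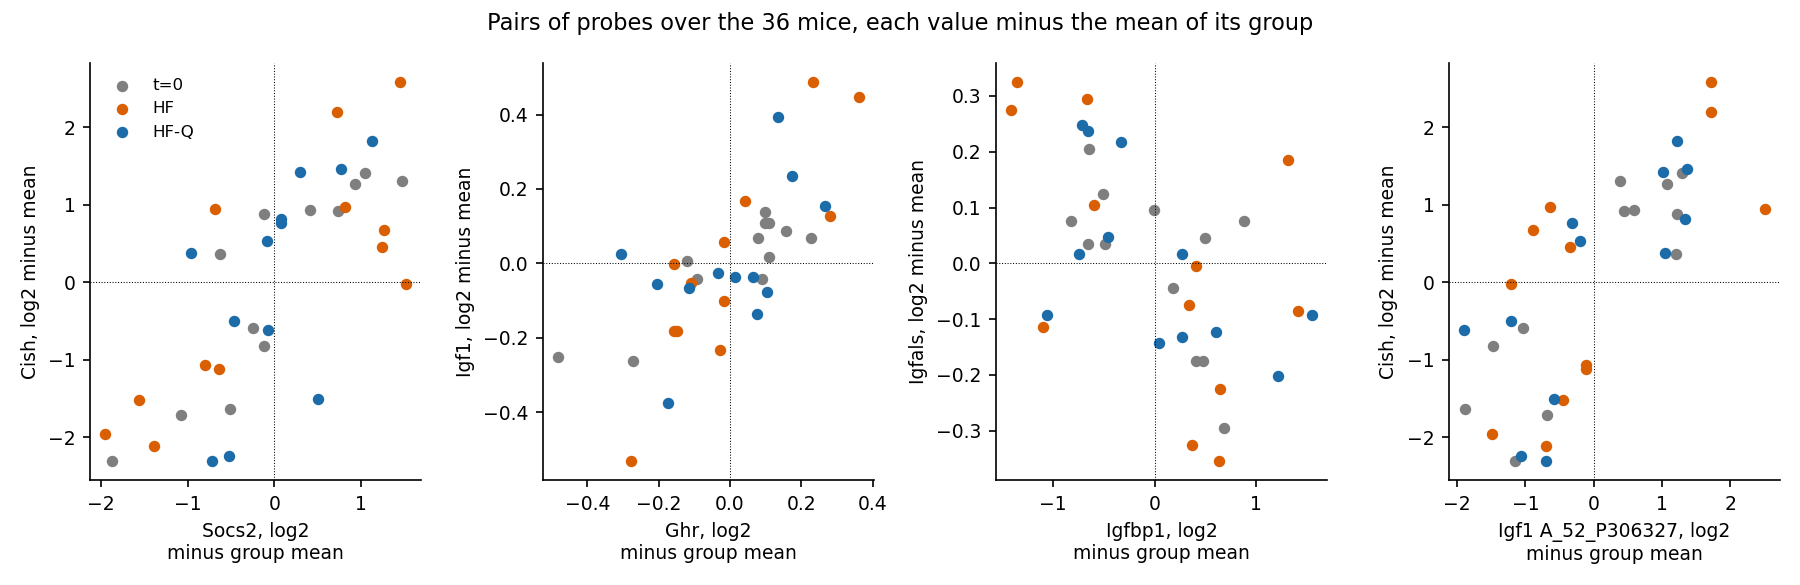
Pairs of probes over the 36 mice, each log2 value minus the mean of its group, coloured by group. Socs2 with Cish (r = 0.75) and Igf1 with Ghr (r = 0.74) rise together, Igfals falls with Igfbp1 (r = -0.55), and the separate Igf1 probe A_52_P306327 rises with Cish (r = 0.75).

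The separate probe A_52_P306327 was set against the 10 brightest probes in a further family of 10 relations, chosen after its values had been seen. It followed Cish with r = 0.75 (permutation p = 2e-05) and rho = 0.76, both with an adjusted p of 0.0002 over the 10, and r was 0.86, 0.66 and 0.75 within t=0, HF and HF-Q. Its relation to Ghr was r = -0.42 (permutation p = 0.0139, adjusted p = 0.0697) and rho = -0.45 (adjusted p = 0.0353).

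Genes whose values over the 36 arrays were most like those of the members were sought among 13042 named genes, for the 3 members whose brightest probe differed most between HF and t=0. For Cish these were Foxa2, a hepatocyte forkhead factor (r = 0.87), Chac1 (r = 0.85) and Plk3 (r = 0.85). For Socs2 they were Slc25a30 (r = 0.86), Onecut1 (r = 0.81), a liver transcription factor known to respond to growth hormone, and Cish (r = 0.79). For Igfals they were Arih2 (r = 0.73), Tcn2 (r = 0.71) and Cyp4f18 (r = 0.71). With group means removed, r for these 3 was 0.56, 0.63 and 0.55. Like Igfals they were lower in HF than in t=0, with differences of -0.27, -0.28 and -0.29. The search left the group means in, so it favoured genes that share this difference, which is thus no separate result. The values of A_52_P306327 were most like those of Phlda1 (r = 0.91), Gadd45g (r = 0.88) and Socs3 (r = 0.87), a search added after its values had been seen. The nearest genes were chosen for their r out of all genes, so these are descriptions without a test.

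Other genes of the growth hormone and IGF pathway moved about as often as any probe. Between HF and t=0, 4 of 19 measured genes were called, beside 21.3% of all probes. Onecut1 fell by 0.88 (SE 0.25, adjusted p = 0.0121), while Irs1, the insulin receptor substrate, rose by 0.33 (adjusted p = 0.0334), Stat3 by 0.28 (0.0475) and the phosphatase Ptpn11 by 0.17 (0.0346). The median of the list was 0.11. Between HF-Q and HF the median was 0.02 and 0 of the 19 were called by limma, by the methods' t-test or at an unadjusted p under 0.05. There limma called only 2.36% of all probes.

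Genes that growth hormone pulses hold high in male liver were measured for 17 of 19 names, and 7 were called between HF and t=0, 4 higher and 3 lower, with a median of 0.02, where 10.9% of all probes were called higher and 10.4% lower. Selenbp2 fell by 1.08 (adjusted p = 0.000119) and Ugt2b1 by 0.57 (0.00133), while Elovl3 rose by 0.95 (0.0497) and Susd4 by 0.63 (0.000521). Of the genes held high in female liver 7 of 11 measured were called, 3 higher and 4 lower, beside the 21.3% of all probes. Those higher, Cyp3a41a (0.69), Cyp3a16 (0.64) and Cyp3a44 (0.61), are near-identical paralogs and therefore uncertain. Of the 11 genes of this list 7 lay below 0, with a median of -0.32 against -0.0047 over all probes. Both lists held called genes of either direction.

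Between HF-Q and HF, where 0.863% of all probes were called lower and 1.49% higher, 3 of the 17 male-type genes were called, all lower: Elovl3 by -1.53 (adjusted p = 0.00373), Moxd1 by -1.49 (0.0312) and Serpina12 by -0.52 (0.00794). Of the 11 female-type genes 3 were called, all higher: Cyp2b9 by 0.91 (adjusted p = 0.0475), Cyp2a4 by 0.80 (0.00717) and Trim24 by 0.54 (0.0135). In all, 16 of the 17 male-type genes lay below 0, with a median of -0.20, and 8 of the 11 female-type genes lay above 0, with a median of 0.25, against 0.01 over all probes. These 6 genes were named because they were called in this comparison.

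**Figure D5:**
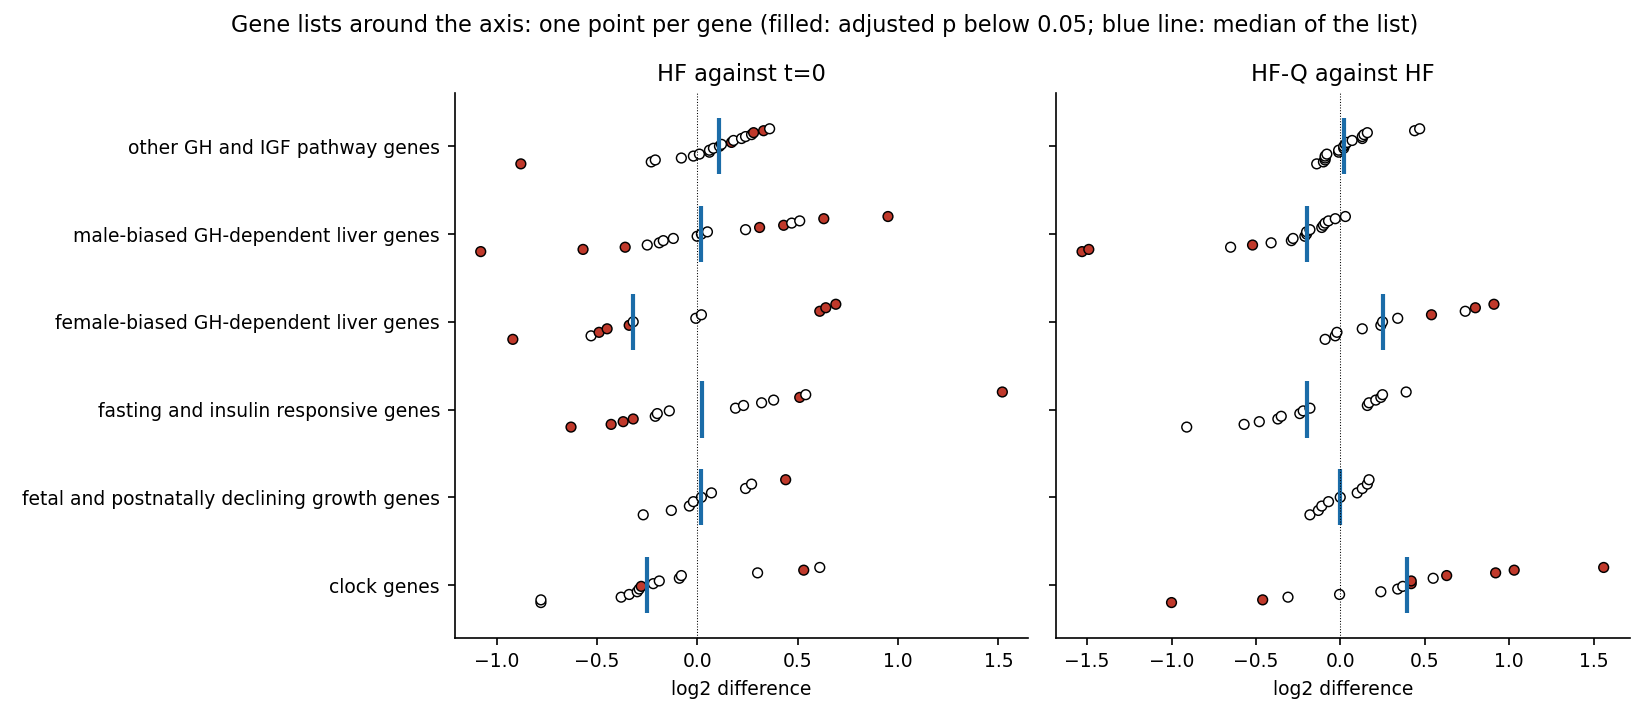
Log2 difference of each measured gene of 6 lists around the axis, for HF against t=0 and HF-Q against HF, filled red where called, with a blue line at the median of the list. In HF-Q against HF the male-type genes lie mostly below 0 (median -0.20) and the female-type genes mostly above it (median 0.25).

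Genes that respond to fasting and insulin, which also govern Igfbp1, were called for 6 of 14 between HF and t=0, beside 21.3% of all probes. Fgf21, a fasting hormone of the liver, rose by 1.52 (SE 0.22, adjusted p = 2.23e-05), and Pdk4 rose by 0.51 (0.00315), whereas Angptl4 fell by 0.63 (0.0477) and Ppargc1a by 0.43 (0.0447). Between HF-Q and HF 0 of the 14 were called by limma or by the methods' t-test, where limma called 2.36% of all probes, and 4 had an unadjusted p under 0.05. Of 9 measured genes known for declining after birth, 1 was called between HF and t=0, beside the same 21.3%. It was Ccnd1, which rose by 0.44 (adjusted p = 0.00126).

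Clock genes moved between the same groups as some of the above. Between HF-Q and HF, 8 of 14 measured clock genes were called, 6 higher and 2 lower, beside 2.36% of all probes, with Usp2, a clock output gene named here after its value was seen, at 1.56. Between HF and t=0 2 of 14 were called, Nfil3 (0.53) and Per3 (-0.28), beside 21.3% of all probes. An unadjusted p under 0.05 (limma) was reached by 8 of the 14, and by 7722 of all 21781 probes. Of the 14, 11 lay below 0, with a median of -0.25 against -0.0047 over all probes. The part of the clock phase in the values of Socs2, Cish, Igfbp4 and the sex-typed genes was not tested.

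Markers of other liver cells were followed beside the axis. Between HF and t=0, 3 of 5 cholangiocyte markers were called, all higher, beside 10.9% of all probes called higher, and the summed level of the 5 ranged from 13.37 to 14.64 in t=0, from 13.59 to 14.71 in HF and from 13.39 to 14.11 in HF-Q mice. Of 2 measured erythroid markers 1 was called, Hba-a1, higher in HF by 0.93, while the other lay below 0 and was not called. Between HF-Q and t=0 both were called, 1 higher and 1 lower. Their sum ranged from 14.44 to 15.18 in t=0, from 15.08 to 16.75 in HF and from 15.25 to 16.26 in HF-Q mice. For Kupffer cells 0 of 6 markers were called by limma or by the methods' t-test and 3 had an unadjusted p under 0.05, though all 6 lay above 0 (median 0.33). Against t=0 all 6 also lay above 0 in HF-Q (median 0.32), with 0 called and 5 at an unadjusted p under 0.05. Their sums were 14.11 to 16.05 (median 14.74) in t=0, 14.78 to 15.93 (15.19) in HF and 14.75 to 15.60 (15.17) in HF-Q mice. Between HF and t=0, 1 of 6 endothelial markers was called, Pecam1 (-0.34), with 3 above 0, 3 below and a median of 0.01. Of 4 lymphocyte markers 1 was called, Ms4a1 (0.34), with 2 above 0, 2 below and a median of 0. Limma called 10.4% of all probes lower and 10.9% higher there. Of 6 stellate markers 0 were called by limma or the t-test or had an unadjusted p under 0.05. The part of these cell types in the differences of Ghr, Igfals and Igfbp4 was not tested.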

How the data were processed

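Liver RNA of 36 mice was hybridized to 2-colour Agilent arrays, 4 to a slide on 9 slides, with the mouse in Cy5 and a pool of all samples in Cy3. The scanner files deposited by the authors hold spot intensities, flags and a log10 ratio, quantified per the labels with Agilent Feature Extraction 10.5.1.1. The authors' table holds normalized log2 values of 23256 spots. These equal log2 Cy5 minus log2 Cy3 median intensity plus a constant per spot and per array, to within 4.48e-06, so no background was subtracted, which compresses differences of dim probes.

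Spots of a probe were averaged, and groups were compared by limma (lmFit, eBayes, two-sided) with the 24 arrays of each pair of groups, with Benjamini-Hochberg adjustment over 21781 probes. Gene names came from the files and from RefSeq accessions (24375 probes by accession, 8727 by name, 8072 without a symbol), and positions are those of mm8 in the files. The members, lists and tests were chosen with earlier results of these data known. Named were every probe of the members, the brightest probe standing for a gene, and from each other list at most the 4 called genes with the largest difference between HF and t=0. Other names are marked, and 1 gene that this rule names is not reported here. Correlations used values minus group means. Alternatives changed normalization, background correction, filter, slide, position, replicate block, test, weights, spot averaging and single mice. The number of arrays limits the precision. The steps were tested on simulated data. R 4.3.3 was used with limma 3.58.1.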

Additional observations from a re-analysis of the deposited data

Results flagged for a closer look

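The change of Igfbp4 from t=0 differed between the diets at probe A_52_P257502, by 0.31 log2 in HF-Q minus HF (adjusted p = 0.0287, limma), a difference between the groups that the direct comparison tested. The change was -0.28 in HF and 0.03 in HF-Q, and the second Igfbp4 probe gave -0.33 and -0.08. Groups of 12 mice were not searched for outlying animals.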

How the results depend on the processing

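Members were recomputed under 38 alternatives in each comparison. In none of them did a called member change its sign, while uncalled members changed sign in 8, 46 and 26 of 798 values for HF against t=0, HF-Q against t=0 and HF-Q against HF. Calls were lost in 4, 27 and 9 values and gained in 40, 20 and 12. Between HF and t=0 the calls of Igfals, Igfbp4 and Ghr A_52_P54106 were lost only with normexp and median centring, where the median of all probes shifted by 0.10. That Ghr probe then gave -0.40 (adjusted p = 0.0501), Igfals -0.26 (0.0611) and the Igfbp4 probes -0.16 (0.305) and -0.21 (0.18), while Igf1 turned to 0.02 and Ghr A_52_P680935 to 0.05. Igfbp2 (0.44, 0.0446) and Igfbp3 (0.28, 0.0416) were then called. In HF-Q against t=0 the same setting ended the calls of Ghr A_52_P633550 (-0.36, adjusted p = 0.317), Ghr A_52_P54106 (-0.48, 0.0902) and Igfbp2 (0.59, 0.0811), and in HF-Q against HF that of Igfbp4 (0.29, 0.395). The array values after normexp and loess called both bright Igf1 probes and 3 more Ghr probes in HF against t=0, among them A_51_P499854 (-0.23, adjusted p = 0.000791), and Igf1 in HF-Q against t=0 (-0.19, 0.0156). All 36 arrays in 1 fit called Socs2 (-1.04, adjusted p = 0.047), and array weights called Socs2 (-1.21, 0.0264) and Cish (-1.46, 0.0473).

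The number of called probes stayed within 1.5 times its value except as follows. With median centring 396 were called for HF-Q against t=0 and 77 for HF-Q against HF. With array weights it was 4220 and 804, and with slide as a fixed block 210 for HF-Q against HF. The causes were not tested. The share of calls that were higher was 85.0% with median centring against 51.3% for HF against t=0, and 32.5% against 63.4% for HF-Q against HF. For HF-Q against t=0 it was 43.8% with the Feature Extraction log ratio against 55.5%. Without single mice the counts ranged from 3988 to 5235, from 1971 to 3200 and from 358 to 614, and without HF-Q replicate 2 they were 2761 and 415.

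Mice of the same number did not deviate together, so the numbers give no pairing. Their correlations had a median of 0.0606, 0.0327 and -0.00971, and 4, 4 and 3 of 12 pairs exceeded 0.1. With a replicate block 4636, 2372 and 360 probes were called. Igfbp2 (0.32, adjusted p = 0.0217) and Igfbp3 (0.19, 0.0365) were then called between HF and t=0, Igfals (-0.18, 0.0474) between HF-Q and t=0, and Igfbp4 was not between HF-Q and HF (0.0504). The 3 called correlations became 4 by Pearson with slide means removed. There Igfals with Igfbp1 was lost (adjusted p = 0.0702), though not by Spearman (0.0296). Igfbp3 with Socs2 (r = 0.51, 0.0397) and with Cish (r = 0.49, 0.0398) were gained. The called correlations became 4 with array values after loess, where Igfbp3 with Socs2 was gained (r = 0.49, 0.0353). They were 2 within t=0, 1 within HF and 0 within HF-Q by Pearson, and by Spearman 5 with slide means removed, 4 after loess, 1 within t=0 and 0 within HF or HF-Q. Within HF-Q 8 of 45 pairs had an unadjusted p under 0.05, with 12 mice in place of 36. Dim probes limit what can be seen: Igfbp3 A_51_P228472, Socs2 A_52_P84037, Stat5b A_52_P663027 and Stat5b A_51_P281938 are under 5 times the background.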
